A study of Mus musculus with 6 samples.

Results

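The inflammasome and pyroptosis genes examined here were Casp1, Casp4, Gsdmd, Pycard, Il18, Il1b, Aim2, Nlrc4 and Nlrp6. They were chosen by name and not by a cut-off on their values, though earlier results of these data were known. These 9 genes were measured by 16 of the 45281 probes of the array and are 9 of its 19057 named genes. The probe that was brightest on average over the 6 arrays stands for its gene, and its other probes are given beside it.

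An inflammasome is a protein complex that assembles in the cytoplasm when a sensor detects a microbial product, stray DNA or cell damage. The sensor recruits an adaptor and activates an inflammatory caspase, which cleaves the precursors of IL-1β and IL-18 and the pore-forming protein gasdermin D. The pores release the cytokines and can end in pyroptosis, a lytic form of cell death, and in the gut both epithelial cells and macrophages carry this machinery. Because caspases and gasdermins are activated by cleavage of protein that is already present, a transcript level does not measure their activity.

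The study asked whether free ubiquitin (free Ub), the unattached form of the small protein that tags other proteins, protects the intestine from radiation. Intestinal RNA of male C57 mice (C57BL/6J in the study's methods), labelled as 4 weeks old, was hybridized to 6 Illumina mouse arrays, 3 from mice given PBS and 3 from mice given free Ub. All had received 7 Gy to the total body. According to the labels, PBS or free Ub followed it and intestine was taken at 3.5 days. The study's figure legend gives an earlier time for the arrays, and its methods give older mice and injection before radiation. No unirradiated intestine was among the arrays, so the contrast is between treatments in irradiated tissue.

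The signals were normalized and on a log2 scale, on which a difference of 1 is a fold change of 2. On each array 32.2% to 33.7% of the probes lay within 0.01 log2 of that array's lowest value, called the floor here. Of 12 epithelial markers of the intestine, 10 had a mean above 6 log2, Epcam had a mean of 4.58 and Fabp2 was at the floor on 3 arrays. Their summed linear signal was 58550 to 70920 with PBS and 63150 to 72410 with free Ub. In whole tissue, fewer cells of a type and less RNA per cell cannot be told apart.

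None of the 9 genes passed a test of the difference between the intestines of mice given free Ub and PBS. With free Ub 3 genes had a lower mean and 6 a higher mean, where 55.7% of all named genes were lower and 44.3% higher. The 55.7% includes genes at the floor on all 6 arrays, which differ by -0.0022 because the floors of the arrays differ. Among the 6141 named genes with a mean above 6 log2, 52.9% were lower and 47.1% higher, against 3 and 4 of 7 members. The median difference was 0.04 log2, and the values of the groups overlapped for all 9 genes. For 7 genes (Casp1, Casp4, Gsdmd, Pycard, Il18, Nlrc4 and Nlrp6), those with a mean signal above 6 log2, the 95% confidence interval of the difference lay within a fold change of 2 in either direction. For Il1b and Aim2, which were dim, the intervals were wide and the data set no bound of 2-fold on a change.

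By limma, 0 of the 9 genes had an unadjusted p under 0.05 against 5.74% of all named genes. The shares were 2.34% for genes higher and 3.4% for genes lower with free Ub. Among the 6141 named genes with a mean above 6 log2, 6.07% had such a p against 0 of 7. At an adjusted p under 0.05 the counts were 0 of 9 genes and 0.0577% of all named genes, and at the threshold in the study's methods (fold change above 2 and unadjusted p under 0.05) 0 of 9 and 2.19%. The groups did not overlap for 0 of 9 genes, for 10.4% of all named genes and for 10.2% of those above 6 log2. With so few members, counts of 0 lie near these backgrounds.

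**Figure D1:**
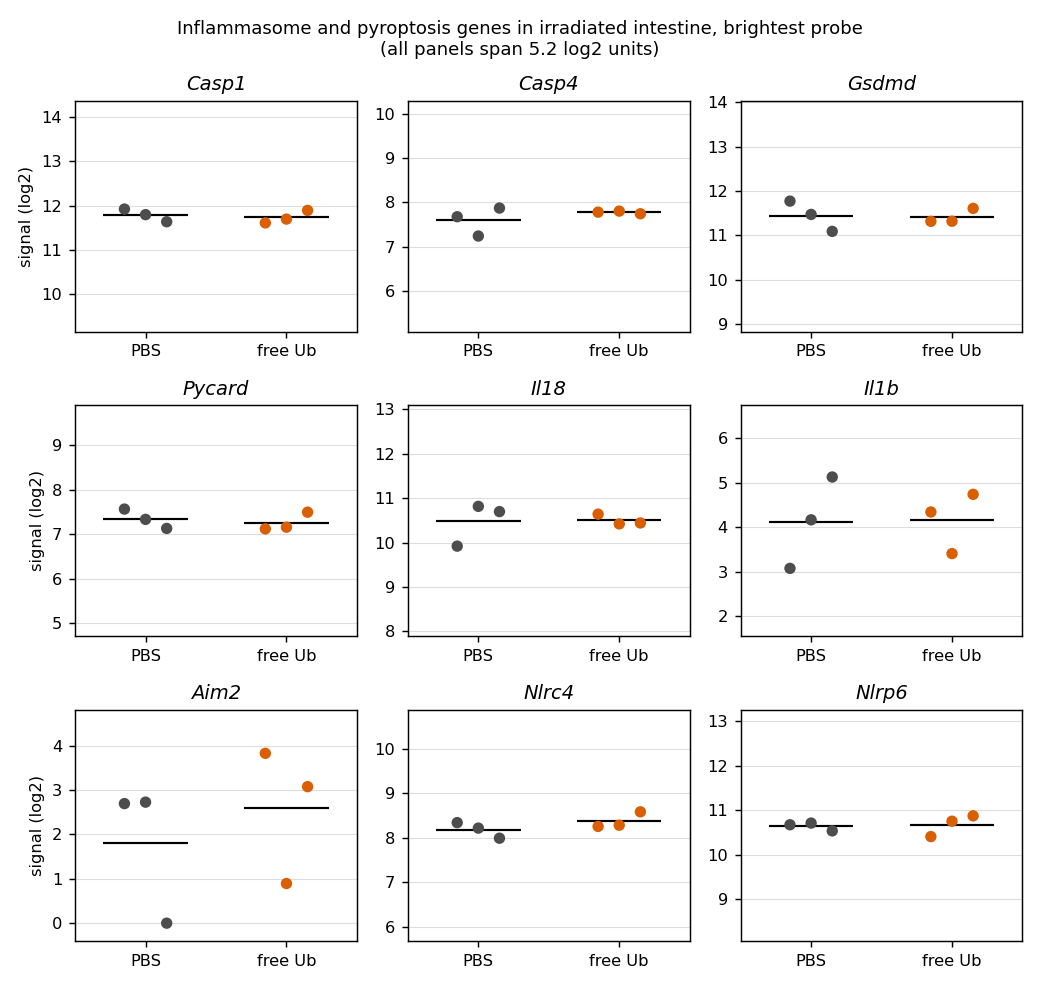
Log2 signal of the brightest probe of each gene (vertical axis, one panel per gene, all panels spanning the same range) in the 3 PBS and 3 free Ub intestines, with points for single arrays and lines for group means. The points of the groups overlap in all 9 panels, closely for Casp1 (11.64 to 11.92 with PBS and 11.61 to 11.89 with free Ub) and over a wide range for Aim2 and Il1b.

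Among the sensors, Nlrc4 and Nlrp6 were measured precisely and Aim2 was not. Nlrc4 encodes the sensor that joins with NAIP proteins to detect bacterial flagellin and secretion needles. Its log2 signals were 8.34, 8.22 and 7.99 with PBS and 8.26, 8.28 and 8.58 with free Ub. The highest value was in free Ub replicate 3 and the lowest in PBS replicate 3, while the other 4 lay close together. The difference of 0.19 (95% interval -0.18 to 0.56) had the smallest p of the 9 genes (limma unadjusted p = 0.235, adjusted p = 0.872, exact permutation p = 0.4), and the interval covers fold changes from 0.883 to 1.48. Without free Ub replicate 3 the difference was 0.0865, and without PBS replicate 3 it was 0.0951.

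Nlrp6 encodes a sensor that acts in the gut epithelium, including its mucus-secreting goblet cells. Nlrp6 signals were 10.67, 10.71 and 10.53 with PBS and 10.40, 10.75 and 10.87 with free Ub, so that free Ub held both the lowest and the highest value. The means were 10.64 ± 0.09 and 10.68 ± 0.24 (SD, n = 3 each), a difference of 0.04 (95% interval -0.34 to 0.42; limma adjusted p = 0.979).

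Aim2 encodes a sensor of double-stranded DNA in the cytoplasm. Aim2 signals were 2.69, 2.73 and 0.00 with PBS, the last at the floor, and 3.82, 0.89 and 3.07 with free Ub. The spread within each group (SD 1.56 and 1.52) exceeded the difference of 0.79 between the means, whose 95% interval ran from -2.35 to 3.93 (limma adjusted p = 0.979). The other Aim2 probe was at the floor on 5 of 6 arrays and read 3.01 in free Ub replicate 1.

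Pycard encodes ASC, the adaptor that links sensors to caspase-1. Pycard signals were 7.57, 7.34 and 7.13 with PBS and 7.12, 7.16 and 7.50 with free Ub, nearly the same range in both groups. The difference was -0.09 (95% interval -0.52 to 0.35; limma adjusted p = 0.979). On its dimmer probe the difference was -0.03.

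Of the inflammatory caspases, Casp1 encodes caspase-1, which cleaves the IL-1β and IL-18 precursors and gasdermin D. Its signals were 11.92, 11.80 and 11.64 with PBS and 11.61, 11.70 and 11.89 with free Ub, means of 11.78 ± 0.14 and 11.73 ± 0.14 (SD, n = 3 each). The difference of -0.05 had a 95% interval of -0.35 to 0.25, fold changes of 0.785 to 1.19 (limma adjusted p = 0.979).

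Casp4 encodes caspase-11 of the mouse, which binds bacterial lipopolysaccharide in the cytoplasm and cleaves gasdermin D without a sensor complex. Its signals were 7.68, 7.24 and 7.87 with PBS and 7.78, 7.80 and 7.75 with free Ub. The 3 free Ub values lay within the PBS range, and PBS replicate 2 was the lowest. The difference was 0.18 (95% interval -0.29 to 0.65; limma adjusted p = 0.874), and 0.0016 without that array.

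The Casp4 promoter is shown because, of the members' promoters, it alone held any of 3 inflammatory motifs that were searched on both strands. RefSeq promoters (GRCm38.p6, 250 bases before to 50 after the start of transcription) were matched for 8 of the 9 genes. No promoter of Gsdmd was matched, so it was not searched, and Casp4 had overlapping windows. The capitals mark 2 matches to the κB motif GGGNNTTTCC, bound by NF-κB, at bases 158 to 167 and, on the minus strand, 237 to 246 of the plus-strand window chr9:5308599-5308898.
Casp4 promoter: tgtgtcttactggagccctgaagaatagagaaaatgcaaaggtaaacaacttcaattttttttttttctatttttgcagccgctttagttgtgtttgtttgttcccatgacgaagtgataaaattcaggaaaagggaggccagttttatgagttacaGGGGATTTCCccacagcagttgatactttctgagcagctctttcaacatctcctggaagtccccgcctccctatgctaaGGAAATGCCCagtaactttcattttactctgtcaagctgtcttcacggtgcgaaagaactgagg

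The κB letters were found in 1.63% of 32851 promoters of this length. The interferon response element core GAAANNGAAA was found in 3.44% of promoters and the gamma-activated site TTCNNNGAA in 8.3%. Neither had a match in the 9 promoter windows of the 8 matched genes. A match describes the letters of the window and not the binding of a factor.

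Gsdmd encodes gasdermin D, the pore-forming substrate of these caspases. On its brightest probe the signals were 11.77, 11.47 and 11.09 with PBS and 11.32, 11.32 and 11.61 with free Ub. The PBS group held both the highest and the lowest value, and the difference was -0.03 (95% interval -0.58 to 0.52; limma adjusted p = 0.979).

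The probes of one gene did not rank the arrays alike. PBS replicate 1 was the highest of the 6 on the brightest Gsdmd probe and the lowest on the other 2, which read 11.00 and 8.96 there. The differences on those 2 probes were 0.10 (95% interval -0.24 to 0.43) and 0.27 (95% interval -0.41 to 0.94). For Casp4 the 2 dimmer probes differed by -0.24 (95% interval -1.16 to 0.69) and 0.39 (95% interval -1.17 to 1.95), so the direction was not shared by its 3 probes. Over all 16 probes 5 were lower and 11 higher with free Ub, and 0 had an unadjusted limma p under 0.05.

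**Figure D2:**
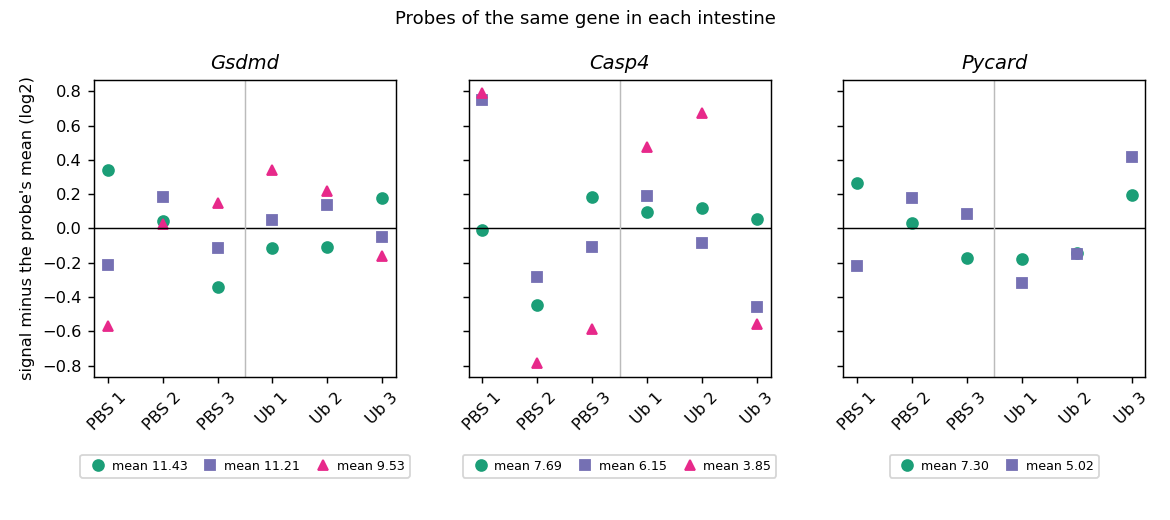
Signal of each probe of Gsdmd, Casp4 and Pycard minus that probe's own mean over the 6 arrays (vertical axis, log2), by intestine (horizontal axis, PBS left and free Ub right of the line); symbols are probes, named by their mean. In PBS replicate 1 the brightest Gsdmd probe lies above and its other 2 probes below their means.

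Il18 and Il1b encode the cytokine precursors. Il18, which intestinal epithelial cells make without stimulation, read 9.92, 10.82 and 10.70 with PBS and 10.64, 10.42 and 10.44 with free Ub. PBS replicate 1 was the lowest and PBS replicate 2 the highest, so the free Ub values all lay inside the PBS range. The means were 10.48 ± 0.49 and 10.50 ± 0.12 (SD, n = 3 each), a difference of 0.02 (95% interval -0.70 to 0.75, fold changes of 0.616 to 1.68; limma adjusted p = 0.981). Without PBS replicate 1 the difference was -0.26 (limma unadjusted p = 0.0637). The other Il18 probe was at the floor on 3 arrays and differed by 0.50 (95% interval -0.50 to 1.51; limma adjusted p = 0.872). As the mean of its probes Il18 differed by 0.26.

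Il18 had the widest range of the 7 brighter genes, 0.90 log2. The genes whose centred values lay nearest to it over the 6 arrays, among 6140 with a mean above 6 log2, were Rbm26, Taf15 and Cda (root mean square differences of 0.0847, 0.0934 and 0.0941 log2). Cda, which encodes cytidine deaminase, read 10.38, 11.27 and 11.25 with PBS and 11.11, 10.90 and 10.68 with free Ub. Like Il18, all 3 genes were lowest in PBS replicate 1 and highest in PBS replicate 2. Because they were picked for closeness to Il18, sharing these arrays is largely built into the choice.

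Il1b, made mainly by activated myeloid cells, read 3.07, 4.16 and 5.13 with PBS and 4.34, 3.40 and 4.74 with free Ub. Its lowest and highest values were both in PBS intestines, and the means were 4.12 ± 1.03 and 4.16 ± 0.69 (SD, n = 3 each). The 95% interval of the difference of 0.04 ran from -1.74 to 1.82, which allows up to a 3.52-fold rise (limma adjusted p = 0.988).

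PBS replicate 3, which had the highest Il1b signal, also had the highest summed linear signals of macrophage and monocyte markers and of neutrophil markers. Single macrophage and monocyte markers were not all highest there. Csf1r, Lyz2, C1qb, C1qc and Cx3cr1 were, but Adgre1, Cd14, C1qa, Fcgr1, Ms4a7 and Itgam were highest in other arrays. The macrophage and monocyte sum (11 markers) ranged from 1229 to 2427 with PBS and from 1191 to 2068 with free Ub. The neutrophil sum (9 markers) ranged from 42.6 to 119.7 and from 42.3 to 82.0, with 7 of the 9 at the floor on at least 1 array and the defining genes Ngp and Camp at the floor on all 6. The smooth muscle sum (6 markers) ranged from 3671 in PBS replicate 3 to 10160 in PBS replicate 1, and from 5959 to 6490 with free Ub. The part of these cells in the values of Il1b or of the other members was not tested.

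**Figure D3:**
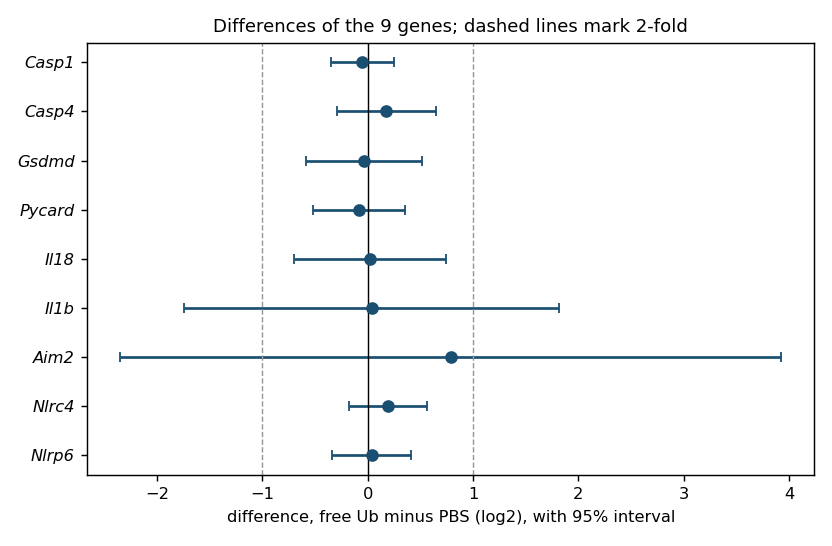
Difference of mean log2 signal, free Ub minus PBS (horizontal axis), for the brightest probe of each gene, with bars for limma's 95% confidence interval. All 9 bars cross 0, and 7 lie within 1 log2 on either side, while those of Il1b and Aim2 extend beyond it.

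Read across the arrays, 3 of the 9 genes were highest in PBS replicate 1, and 3 were lowest in PBS replicate 3 and 3 in free Ub replicate 1. Among the 6141 genes above 6 log2, 24.1% were highest in PBS replicate 1, 22.2% lowest in PBS replicate 3 and 20.4% lowest in free Ub replicate 1. The median size of the difference was 0.05 log2 over the 7 brighter genes and 0.12 over the 6141, with median half-widths of the 95% interval of 0.44 and 0.40.

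Of 57 other genes of these pathways, in 6 lists, 50 were measured, and 23 were higher and 25 lower with free Ub, with 2 at the floor on all arrays. By limma 2 were higher and 2 lower at an unadjusted p under 0.05, and 0 passed an adjusted p under 0.05 (smallest adjusted p = 0.399). The median difference over the 50 genes was -0.02 log2. The 4 genes were Serpinb1a, Casp6, Gbp3 and Nlrp3, and 4 of 50 lies near the 5.74% of all named genes.

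Serpinb1a encodes a serpin that inhibits neutrophil proteases and restrains inflammatory caspases. It read 10.54, 10.62 and 10.67 with PBS and 10.88, 10.86 and 10.87 with free Ub. All 3 free Ub values lay above the PBS values, by 0.26 log2 in the mean (95% interval 0.15 to 0.37; limma unadjusted p = 0.00235, adjusted p = 0.399, exact permutation p = 0.1). Leaving out any 1 array gave unadjusted p-values of 0.00196 to 0.0111, but a fit of only the brighter probes gave an interval of -0.09 to 0.60 and an unadjusted p of 0.115.

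Casp6 encodes an executioner caspase. Its brightest probe read 11.00, 11.05 and 11.24 with PBS and 11.37, 11.34 and 11.31 with free Ub, with no overlap and a difference of 0.25 (95% interval 0.05 to 0.45; limma unadjusted p = 0.0253, adjusted p = 0.831, exact permutation p = 0.1). Its other probe differed by 0.39 in the same direction (limma unadjusted p = 0.00229, adjusted p = 0.395). On the brightest probe the unadjusted p stayed under 0.05 without PBS replicate 3 (0.00177) and passed it without any other single array (up to 0.0766). In the fit of only the brighter probes the unadjusted p was 0.152 (interval -0.12 to 0.62).

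Gbp3 encodes a guanylate-binding protein, of a family that exposes bacterial lipopolysaccharide to caspase-11. It read 7.49, 7.24 and 7.52 with PBS and 6.95, 6.91 and 7.19 with free Ub. The groups did not overlap, and the difference was -0.40 (95% interval -0.72 to -0.09; limma unadjusted p = 0.0223, adjusted p = 0.804, exact permutation p = 0.1). The unadjusted p was 0.0694 to 0.0715 without replicate 1 or 3 of the PBS group or without replicate 1 or 2 of the free Ub group, and 0.057 in the fit of only the brighter probes. On the other Gbp3 probe the groups overlapped, and the difference was -0.46 (95% interval -1.01 to 0.10; limma unadjusted p = 0.0852, adjusted p = 0.872, exact permutation p = 0.2). The members of this family are close copies, and their probes may share signal.

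Nlrp3 encodes the sensor of cell damage that has been studied most. Its brightest probe read 1.36, 2.21 and 0.40 with PBS and was at the floor in the 3 free Ub intestines (limma unadjusted p = 0.048, adjusted p = 0.872, exact permutation p = 0.1), so the size of the difference was not measured. The other Nlrp3 probe was at the floor on 5 arrays and read 1.52 in free Ub replicate 2, in the other direction. The unadjusted p stayed under 0.05 without PBS replicate 3 (0.00555) and was 0.0654 to 0.116 without each of the other arrays.

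Among the other sensors (9 of 12 measured), 3 were higher and 4 lower with free Ub. Nlrp3 was the 1 gene with an unadjusted limma p under 0.05, against 5.74% of all named genes. Naip5 and Naip2, partners of Nlrc4 that bind bacterial ligands, differed by -0.30 (limma adjusted p = 0.872) and -0.14 (adjusted p = 0.979), where Nlrc4 differed by 0.19. The other Naip5 probe, at the floor on 1 array, differed by 1.22 (limma adjusted p = 0.898). Mefv, which encodes pyrin, was dim and differed by -0.67 (limma adjusted p = 0.872).

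Of the 9 other gasdermins and membrane rupture genes, 7 were higher and 2 lower with free Ub. Of all named genes 44.3% were higher, and of those with a mean above 6 log2 47.1%. Only 3 of the 9 genes were above the floor on all arrays, so the split rests largely on values at or near the floor. The median difference of the 9 was 0.21 log2, and 0 had an unadjusted limma p under 0.05, against 5.74% of all named genes. Gsdme encodes the gasdermin cut by caspase-3. The study assayed its cleaved protein, and those of gasdermin D, caspase-8 and IL-1, in cultured human intestinal epithelial cells. The Gsdme signals were 5.94, 6.01 and 6.04 with PBS and 5.85, 6.11 and 5.91 with free Ub. Its difference was -0.04 (95% interval -0.26 to 0.17; limma adjusted p = 0.979). The others were dim, among them Gsdmc3 (difference 0.27) and Gsdma2 (difference 0.10; limma adjusted p = 0.979 for both), which belong to clusters of close copies.

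Of the other caspases (5 of 7 measured), 3 were higher and 2 lower. Casp6 was the 1 gene with an unadjusted limma p under 0.05, against 5.74% of all named genes. Casp8, the initiator caspase that can also cleave gasdermin D, read 9.42, 9.74 and 9.69 with PBS and 9.51, 9.86 and 9.78 with free Ub, a difference of 0.10 (95% interval -0.26 to 0.47; limma adjusted p = 0.954). Casp9, the initiator caspase of the mitochondrial pathway, differed by 0.13 (limma adjusted p = 0.872).

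The list of IL-1 and IL-18 ligands, receptors and inhibitors, which holds Il1a and the adaptor Myd88 as well, was split. Of 10 measured, 5 were higher and 5 lower, and 0 had an unadjusted limma p under 0.05, against 5.74% of all named genes. Il18bp, which encodes the secreted trap of IL-18, was 4.26 ± 0.38 with PBS and 4.69 ± 0.17 with free Ub (SD, n = 3 each). Its difference of 0.43 had a 95% interval of -0.17 to 1.03. Sigirr, a brake on these receptors, differed by 0.25 (limma adjusted p = 0.872), and Il1rn, the IL-1 receptor antagonist, by -1.37 (adjusted p = 0.872) with an SD of 1.73 in the free Ub group.

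Of 14 regulators of inflammasome assembly, 4 were higher and 10 lower with free Ub (median -0.19 log2). Of all named genes 55.7% were lower, and of those with a mean above 6 log2 52.9%. Serpinb1a and Gbp3 had an unadjusted limma p under 0.05, as did 5.74% of all named genes. Of the lower genes, Nek7, P2rx7 and Gbp5 were at the floor on at least 1 array. Irf8, a transcription factor that drives Naip genes, differed by -0.22 (limma adjusted p = 0.872). Of the 3 necroptosis genes measured, Mlkl, the pore-forming effector, differed by -0.26 (limma adjusted p = 0.872), Zbp1, a nucleic acid sensor, by -0.08 (adjusted p = 0.979) and Ripk3, the kinase that activates Mlkl, by 0.00 (adjusted p = 0.999).

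**Figure D4:**
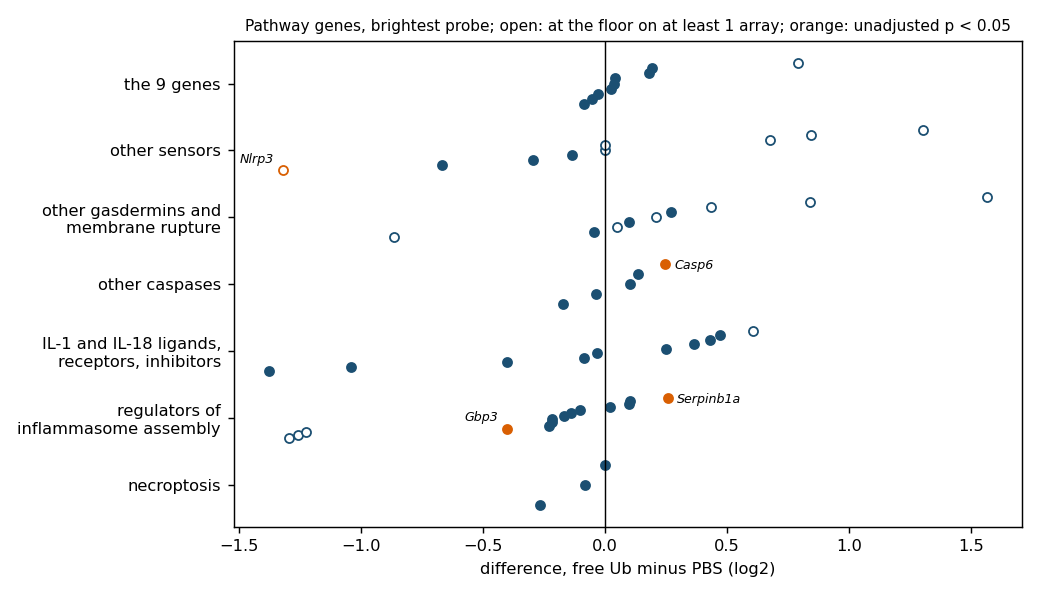
Difference of log2 signal, free Ub minus PBS (horizontal axis), for the brightest probe of each gene, in rows for the 9 genes and the 6 lists of other pathway genes; open points were at the floor on at least 1 array and orange marks an unadjusted limma p under 0.05. Points of the 9 genes lie on both sides of 0 (3 lower and 6 higher), and 4 points of other genes are orange.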

How the data were processed

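Intestinal RNA of irradiated mice was measured on Illumina MouseWG-6 v2 arrays, 3 given PBS and 3 free Ub, grouped by the treatment in the labels. Sources differ on the age of the mice, the time of collection and whether injection preceded radiation, and no comparison uses them. The labels number the replicates without naming separate animals, so p-values measure the spread between these samples, which may be technical.

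The authors normalized the signals in GenomeStudio by cubic spline, and the deposited values were read as log2 from their range, which no source states. No detection p-values were given, so no gene was called present or absent, and the number of arrays limits the precision. Of the probes, 34885 had 1 gene name, 18 several and 10378 none.

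All 45281 probes were fitted with limma 3.58.1 in R 4.3.3 (lmFit and eBayes, free Ub minus PBS, two-sided), and p-values were adjusted by Benjamini-Hochberg over the whole table. The fit was tested on simulated data. Exact permutation tests of single genes cannot go below p = 0.1 with 3 against 3, and gave 0.4 to 1 for the 9 genes. Genes were named by rule: the 9 genes with all probes, Nlrp3, Gsdme and Casp8, up to 3 genes with the smallest p of each pathway list among those above the floor on all arrays, and the 3 nearest to the widest-ranging brighter gene. The genes and lists were chosen with earlier results of these data known. Motifs were searched as letters on both strands. Alternatives were quantile normalization, median centring, raising values under 4, brighter probes only (above the median of probe means), a replicate block, Student's tests, an intensity trend, array weights, the mean of a gene's probes and leaving out each array.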

Additional observations from a re-analysis of the deposited data

How the results depend on the processing

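None of the 9 genes passed an unadjusted or an adjusted p under 0.05 in the 16 alternatives run, which included limma, unpaired and paired Student's tests, and the smallest unadjusted p was 0.0637. Of 143 differences recomputed for single genes, 22 changed sign, all of them of values that were not called. With array weights the differences were 0.041 for Casp1, 0.18 for Gsdmd, 0.0485 for Pycard, -0.17 for Il18 and -0.61 for Il1b. Gsdmd was also 0.004 with median centring and 0.11 as the mean of its probes, and Il1b was -0.0714 with values under 4 raised to 4, where Aim2 was constant and had no test. Leaving out each array gave ranges of -0.13 to 0.0166 for Casp1, 0.0016 to 0.32 for Casp4, -0.21 to 0.13 for Gsdmd, -0.20 to 0.026 for Pycard, -0.26 to 0.19 for Il18, -0.49 to 0.54 for Il1b, -0.11 to 1.64 for Aim2, 0.0865 to 0.27 for Nlrc4 and -0.06 to 0.17 for Nlrp6. Over these the count of genes lower with free Ub ran from 2 to 5 (5 without PBS replicate 3 or free Ub replicate 3), and that of genes whose groups did not overlap from 0 to 2 (2 without PBS replicate 1, Il18 and Nlrc4, against 17.9% of the 6141 genes above 6 log2 without that array). The count of pathway genes at an unadjusted p under 0.05, 4 as reported, was 0 with only the probes above the median of probe means and 1 to 5 without each array, with 1 without free Ub replicate 1 or free Ub replicate 2. It was 3 among genes above the floor on all 6 arrays, a restriction chosen after seeing the data. The causes were not tested. The intervals of the 7 brighter genes stayed within 1 log2 in the fit of brighter probes. Dim signals limit Il1b and Aim2.

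Same-numbered samples did not deviate together (correlations of -0.144, -0.012 and -0.48 over 9485 probes), so the numbers were not taken as pairs. The study's methods name a paired test for gene expression without saying which arrays form pairs. With the replicate block, 0 of the 9 genes and 3 pathway genes had an unadjusted p under 0.05.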

Other observations

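The summed linear signal of 8 dendritic cell markers ranged from 77.97 to 103 with PBS and from 48.3 to 73.5 with free Ub, and 0 of the 8 had an unadjusted limma p under 0.05, against 5.74% of all named genes. Leaving out Xcr1, Cd209a or Siglech, each in turn, made the sums of the groups overlap, and 5 of the 8 markers were at the floor on at least 1 array.

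The sum of 10 T and NK cell markers ranged from 905 to 948.2 with PBS and from 753.6 to 895.9 with free Ub. Prf1 encodes the pore-forming protein perforin of cytotoxic lymphocytes. It was the 1 of the 10 with an unadjusted limma p under 0.05, against 5.74% of all named genes. Its brightest probe read 8.26, 7.996 and 7.67 with PBS and 7.40, 7.14 and 7.45 with free Ub (limma unadjusted p = 0.0198, adjusted p = 0.763, exact permutation p = 0.1). The other Prf1 probe, at the floor on 1 array, differed by 1.10 in the other direction (limma adjusted p = 0.872). Without Prf1 the sums overlapped, at 600.1 to 744 with PBS and 602.2 to 727 with free Ub. The median difference of the 10 markers was -0.04 log2. Single markers were left out of these sums after the data were seen.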
